A study of Mus musculus with 2 samples.

Results

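The 10 microRNA genes described here form the proximal end of the imprinted Dlk1-Dio3 locus on mouse chromosome 12, from Mir770 inside the long non-coding RNA gene Meg3 to Mir434 opposite the coding gene Rtl1. They were chosen by symbol in the GENCODE M21 annotation, and all 10 were found among the 2202 microRNA genes counted. The data are microRNA-seq libraries, which hold RNA shorter than 30 bases, made from total RNA of left cerebral cortex. The mice were adult males of the strain labelled 5xFAD/CAST, 8 to 10 months old. 5xFAD is a transgenic model of amyloid deposition whose transgenes are driven in neurons by the Thy1 promoter, and CAST is a wild-derived inbred strain. The labels give the strain but not the transgene status of the animals. The 2 libraries are biological replicates 1 and 2 of 1 group. The labels give both tissue samples a single donor identifier, and whether their spread is technical or that of separate animals is not known. Control mice were not analysed here, and what follows are levels, comparisons among the genes, and the spread between the libraries.

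In the Dlk1-Dio3 locus the protein-coding genes, among them Dlk1, Rtl1 and Dio3, are expressed from the paternal chromosome, and the non-coding RNAs, among them Meg3 and the microRNAs, from the maternal one. Rtl1 is a gene derived from a retrotransposon that the placenta needs for its fetal capillaries. The microRNAs on the strand opposite Rtl1 are fully complementary to its RNA, and in mouse they are known to direct its cleavage. A microRNA precursor is cut into a 5p and a 3p arm, and bases 2 to 8 of the arm that is kept, the seed, pair with target RNAs. The microRNAs of this locus are known to be abundant in brain.

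Of the 10 genes, 4 lay antisense to Rtl1 and 6 lay in or near Meg3 (mm10, plus strand, counted from 1). Mir431 (109590447 to 109590537), Mir433 (109591715 to 109591838), Mir127 (109592846 to 109592915) and Mir434 (109594506 to 109594599) each fell wholly within the annotated coding sequence of Rtl1, which is on the minus strand at 109589193 to 109600330. Mir770 (109563692 to 109563785) was the only member inside Meg3 (109541001 to 109571726). It was in an exon of 1 Meg3 transcript and in an intron of another 3. Mir673 (109571990 to 109572080) began 264 bases after the annotated end of Meg3, and Mir493 (109580233 to 109580315) 8507 bases after it. Mir337 (109585789 to 109585885), Mir540 (109586080 to 109586146) and Mir665 (109586314 to 109586407) lay 14063 to 14588 bases after Meg3 and 2786 to 3308 bases short of Rtl1, so these 3 were nearer to Rtl1. They were kept with Meg3 because they do not overlap Rtl1.

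The mature arms of the members antisense to Rtl1 are shown with the seed in capitals, because they carry the feature that sets this group apart by position (RefSeq, GRCm38.p6, 5′ to 3′).
mmu-miR-431-5p: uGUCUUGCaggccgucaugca
mmu-miR-431-3p: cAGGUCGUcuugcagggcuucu
mmu-miR-433-5p: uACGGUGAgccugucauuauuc
mmu-miR-433-3p: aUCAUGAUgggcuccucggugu
mmu-miR-127-5p: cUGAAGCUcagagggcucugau
mmu-miR-127-3p: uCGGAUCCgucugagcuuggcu
mmu-miR-434-5p: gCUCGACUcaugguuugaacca
mmu-miR-434-3p: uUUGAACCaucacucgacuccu

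The arms of the 2 most abundant genes on the Meg3 side are shown for comparison, again with the seed in capitals.
mmu-miR-770-5p: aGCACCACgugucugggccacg
mmu-miR-770-3p: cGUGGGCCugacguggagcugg
mmu-miR-337-5p: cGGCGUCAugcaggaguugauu
mmu-miR-337-3p: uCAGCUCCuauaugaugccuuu

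All 8 arms of the members antisense to Rtl1 were fully complementary to the Rtl1 transcript over their whole length, each at 1 site and each within the coding sequence. These sites follow from the position of the genes, which lie wholly within that sequence on the other strand. In the search of all 141767 annotated transcripts, Rtl1 was the only gene with such a site for these arms. For miR-127-3p, from the most abundant member, the site covers bases 2642 to 2663 of the Rtl1 transcript, with the match to the seed in capitals.
Rtl1 site for mmu-miR-127-3p: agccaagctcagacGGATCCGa
None of the 12 arms of the members in or near Meg3, which do not overlap Rtl1, had a full complement in Rtl1. The arms of Mir337 had theirs in Mir3544, a microRNA gene annotated on the other strand of the same hairpin. Both arms of Mir770 were also present, on the same strand, in a Meg3 transcript. The 20 arms of the 10 genes had 20 different seeds, so no members shared one. Of these, 18 occurred in no other mature mouse microRNA in the RefSeq table, miR-673-5p shared its seed with miR-6985-3p, and miR-540-3p shared its seed with miR-6915-5p. The tables count reads per gene, and every value below holds both arms together.

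Every member was detected, with at least 10 reads in each library, and together the 10 took 5.76 ± 0.525% of the reads assigned to microRNA genes (SD, n = 2). The share was 6.13% in replicate 1 (exact 95% interval 6.11 to 6.15%) and 5.39% in replicate 2 (5.37 to 5.41%). Intervals here come from the counts alone and cover counting error only, and no molecular identifiers were used. Assigned sense reads came to 4929428 in replicate 1 and 4441328 in replicate 2, and levels are counts scaled to 1000000 of these (CPM), and a single read adds 0.203 CPM (replicate 1) or 0.225 CPM (replicate 2). In bulk tissue, fewer cells of a type and less RNA per cell cannot be told apart. As a check of the tissue label, 8 of 10 listed loci of neuronal microRNAs were detected, with a summed level of 48588 CPM in replicate 1 and 60407 CPM in replicate 2, against 69.0 and 50.9 CPM for the liver microRNA Mir122. Mir132 carried the higher neuronal sum of replicate 2, and without it the list summed to 28907 CPM (replicate 1) and 15709.7 CPM (replicate 2).

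Markers of other cells also differed between the libraries. All 3 oligodendrocyte loci were detected, with a summed level of 3393 CPM in replicate 1 against 5622 CPM in replicate 2. The 3 vessel loci summed to 20418 CPM in replicate 1 against 21812 CPM in replicate 2. The 3 red blood cell loci summed to 602 CPM in replicate 1 against 88.5 CPM in replicate 2. Of these, Mir451a (529 and 52.2 CPM) and Mir144 (57.8 and 6.30 CPM) were higher in replicate 1, and Mir486 (15.0 and 29.9 CPM) was higher in replicate 2. The part of cell content in the values below was not tested.

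The members antisense to Rtl1 held most of these reads. In replicate 1 the 4 genes had 259441 reads and the 6 genes in or near Meg3 had 42884, a ratio of 6.05 (exact 95% interval 5.99 to 6.11). In replicate 2 they had 185198 and 54197 reads, a ratio of 3.42 (3.38 to 3.45). The antisense members were thus the larger group in both libraries, with a log2 ratio of 2.18 ± 0.58 (SD, n = 2). The size of the ratio was less certain than its direction, since the libraries differed by more than counting error. Both groups were read in the same libraries, so the ratio does not depend on how the libraries were scaled. As shares of all microRNA reads, the antisense group took 5.26% and the Meg3 group 0.870% in replicate 1, and they took 4.17% and 1.22% in replicate 2. An exact sign-flip test over 2 libraries cannot give a two-sided p below 0.5, so none is reported, and the genes of a group are not replicates of one another.

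**Figure D1:**
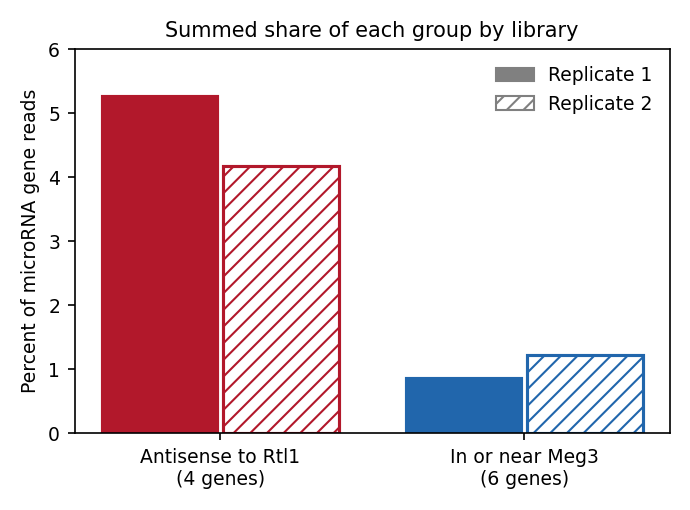
Bars give the percent of microRNA gene reads (vertical axis) taken by the 4 genes antisense to Rtl1 and by the 6 genes in or near Meg3, filled for replicate 1 and hatched for replicate 2, with no error bars since each bar is 1 library. The antisense bars stand at 5.26% and 4.17% and the Meg3 bars at 0.870% and 1.22%.

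Each group was led by 1 gene. Mir127 supplied 72.4% of the reads antisense to Rtl1 in replicate 1 and 65.3% in replicate 2, and with Mir433 it supplied 93.7% and 93.9%. Mir770 supplied 71.6% of the reads of the Meg3 group in replicate 1 and 77.8% in replicate 2. Without Mir127 and Mir770, the other antisense members still stood above the other Meg3 members, with 14524 against 2470 CPM in replicate 1 and with 14464 against 2708 CPM in replicate 2. That ratio was 5.88 in replicate 1 and 5.34 in replicate 2, so it differed less between the libraries than the ratio over all 10 genes. The medians pointed the same way: the median member antisense to Rtl1 was at 6787 CPM in each library, and the median member in or near Meg3 at 549 and 719.7 CPM in replicates 1 and 2. The groups nevertheless overlapped, because Mir770 and Mir337 stood above Mir431.

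Among the genes antisense to Rtl1, Mir127 had 187846 reads (38107 CPM) in replicate 1 and 120958 reads (27235 CPM) in replicate 2, a mean of 32671 ± 7688 CPM (SD, n = 2). It ranked 7 of the 417 detected microRNA genes by mean level, and in mouse its loss is known to disturb the fetal capillaries of the placenta. Ranks and shares leave out reads that mapped to several places, 38.5% in replicate 1 and 33.0% in replicate 2. What those reads would do to the ranks and shares was not tested. Mir433 had 55317 reads (11222 CPM) in replicate 1 and 53016 reads (11937 CPM) in replicate 2, a mean of 11579 ± 506 CPM, and ranked 17 of 417. Mir434 had 11598 reads (2353 CPM) in replicate 1 and 7274 reads (1638 CPM) in replicate 2, a mean of 1995 ± 506 CPM. Mir127 and Mir434 were higher in replicate 1, while Mir433 was nearly level. Mir431, known for its part in the regrowth of sensory axons and in muscle stem cells of mice, was the lowest of the 4. It had 4680 reads (949 CPM) in replicate 1 and 3950 reads (889 CPM) in replicate 2, a mean of 919 ± 42.4 CPM.

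Among the genes in or near Meg3, Mir770 had 30708 reads (6230 CPM) in replicate 1 and 42168 reads (9494 CPM) in replicate 2, a mean of 7862 ± 2309 CPM. Of the 6, it was the furthest apart in CPM, higher in replicate 2, and it ranked 25 of 417. Mir337 had 5656 reads (1147 CPM) in replicate 1 and 4094 reads (922 CPM) in replicate 2, a mean of 1035 ± 160 CPM. Mir540 had 3756 reads (762 CPM) in replicate 1 and 3492 reads (786 CPM) in replicate 2, a mean of 774 ± 17.2 CPM. Of these, Mir540 was the steadiest with library totals, with a gap of 1.03-fold. Under other scalings of the libraries the gap of Mir493 was smaller than that of Mir540. Mir673, just beyond the end of Meg3, had 1660 reads (337 CPM) in replicate 1 and 2901 reads (653 CPM) in replicate 2, a mean of 495 ± 224 CPM. Mir665 had 924 reads (187 CPM) in replicate 1 and 1390 reads (313 CPM) in replicate 2, a mean of 250.2 ± 88.8 CPM. Both stood higher in replicate 2. Mir493, which in human colon cancer cells is known to restrain spread to the liver, was the lowest of the 10 genes, with 180 reads (36.5 CPM) in replicate 1 and 152 reads (34.2 CPM) in replicate 2, a mean of 35.4 ± 1.62 CPM.

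**Figure D2:**
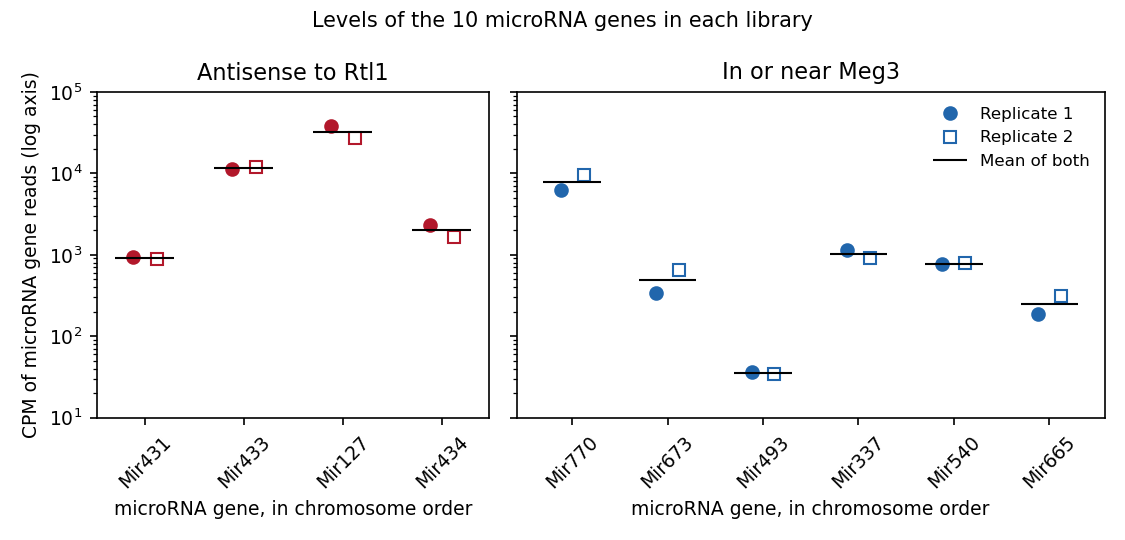
Points give the level of each gene in CPM on a log axis, with filled circles for replicate 1, open squares for replicate 2 and a line at their mean, for the 4 genes antisense to Rtl1 (left) and the 6 genes in or near Meg3 (right), each in chromosome order. Mir127 and Mir433 stand above all 6 genes in or near Meg3 in both libraries, and Mir431 lies below Mir770 and close to Mir337.

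From the highest mean to the lowest, the order was Mir127, Mir433, Mir770, Mir434, Mir337, Mir431, Mir540, Mir673, Mir665 and Mir493, and it was the same in both libraries. Of the 9 pairs of neighbours in this order, only Mir337 and Mir431 had ranges over the 2 libraries that overlapped. Ranges of 2 values are a description, and no difference between neighbours was tested. Mir337 ranged from 922 to 1147 CPM and Mir431 from 889 to 949 CPM. A read is a whole small RNA, so CPM was not divided by gene length. The precursors run from 67 to 124 bases, and per 100 bases of precursor some neighbours changed places. On that scale Mir540 stood above Mir431 in replicate 1, at 1137 against 1043 CPM per 100 bases. In replicate 2, Mir770 stood above Mir433, at 10100.5 against 9627 CPM per 100 bases, and Mir540 and Mir431 stood above Mir337. Per base of precursor, the antisense group remained above the Meg3 group, with a log2 ratio of 2.38.

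To set a gap between the libraries against counting error, the reads of each gene were put to an exact binomial test (two-sided), adjusted by Benjamini-Hochberg over all 417 detected genes. It compares these libraries and not conditions. Of the 10 members, 8 differed at an adjusted p under 0.05, 4 of them higher and 4 lower in replicate 1, beside 59.2% of all detected genes, of which 34.5% were higher and 24.7% were lower in replicate 1. At these depths the test passes small gaps. It allows for counting error and not for the fitted spread between the libraries, a coefficient of variation of 0.340. With library totals none of the members was 2-fold apart, against 11.3% of detected genes that both passed the test and were 2-fold apart. Under other scalings Mir673 was just past 2-fold, with log2 ratios of -1.009 (TMM factors) and -1.004 (DESeq2 size factors). The median size of the gap, as an absolute log2 ratio, was 0.40 over the members and 0.37 over all detected genes.

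Antisense to Rtl1, 3 of 4 members were higher in replicate 1 and 1 was lower. Mir434 had a log2 ratio of replicate 1 over replicate 2 of 0.52 (exact 95% interval 0.48 to 0.57) and Mir127 of 0.48 (0.47 to 0.50). Mir431 had a ratio of 0.09 (0.03 to 0.16), and Mir433 one of -0.09 (-0.11 to -0.07). The call of Mir431 was lost under other scalings of the libraries: the adjusted p of the exact binomial test was 0.00482 with library totals, 0.268 with TMM factors and 0.209 with DESeq2 size factors.

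In or near Meg3, 3 of 6 members were lower in replicate 1, 1 was higher and 2 did not pass. Mir673 had the widest gap of the 10, with a log2 ratio of -0.96 (-1.04 to -0.87), ahead of Mir665 at -0.74 (-0.86 to -0.62) and Mir770 at -0.61 (-0.63 to -0.59). Of the 417 detected genes, 59 had a wider gap than Mir673. Mir337 was higher in replicate 1, with a log2 ratio of 0.32 (0.26 to 0.37). By the exact binomial test, Mir493 had a ratio of 0.09 (-0.23 to 0.41, adjusted p = 0.685) and Mir540 one of -0.05 (-0.11 to 0.02, adjusted p = 0.263). With TMM factors Mir540 passed as lower in replicate 1, at -0.10 (adjusted p = 0.00752, exact binomial test), and with DESeq2 size factors at -0.09 (adjusted p = 0.0112, exact binomial test). The median log2 ratio was 0.29 over the antisense members, -0.33 over the Meg3 members and 0.05 over all detected genes. Within each group members went both ways, and the difference between the groups in this gap was not tested. The whole neuronal list was lower in replicate 1 (48588 against 60407 CPM), unlike Mir127 and Mir434, and only without Mir132 was it higher there. The oligodendrocyte list was lower in replicate 1, as Mir770, Mir673 and Mir665 were. The part of either list in these gaps was not tested.

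**Figure D3:**
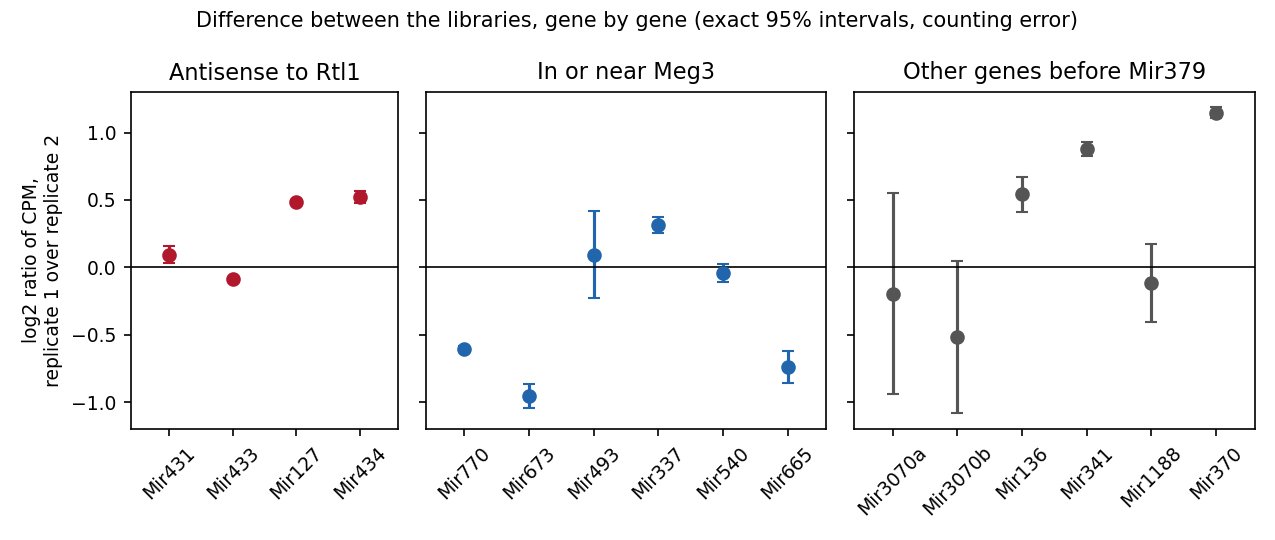
Points give the log2 ratio of CPM in replicate 1 over replicate 2 (vertical axis) for the genes antisense to Rtl1 (left), the genes in or near Meg3 (middle) and the other detected genes before Mir379 (right), in chromosome order, with exact 95% intervals for counting error. Mir127 and Mir434 lie near 0.5, while Mir770, Mir673 and Mir665 lie between -0.61 and -0.96.

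**Figure D4:**
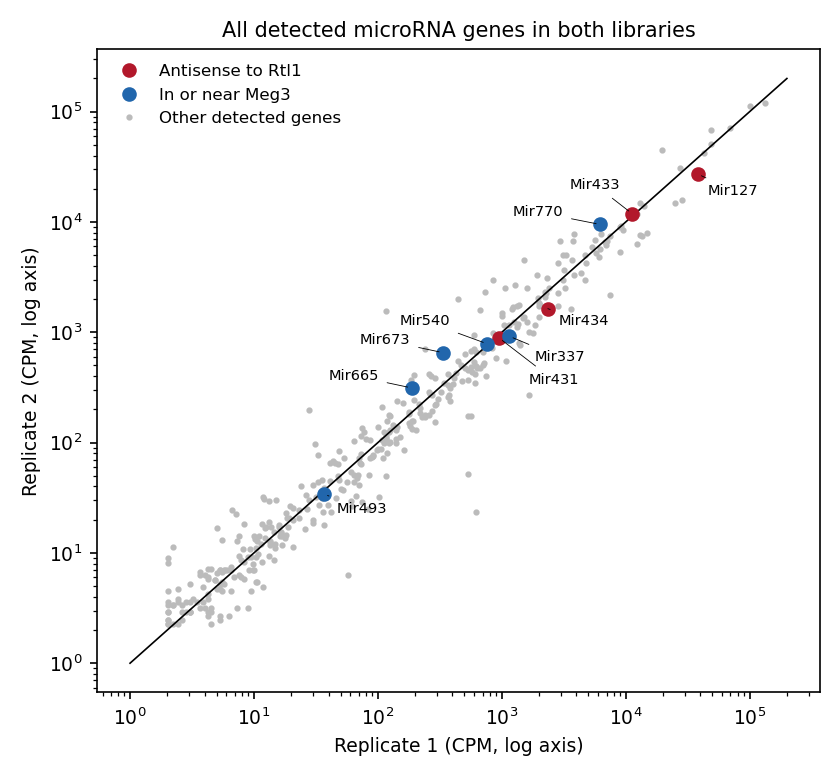
Each point is a detected microRNA gene, with its CPM in replicate 1 (horizontal log axis) and in replicate 2 (vertical log axis), red for genes antisense to Rtl1, blue for genes in or near Meg3 and grey for the rest, and the line marks equal levels. Mir127 at 32671 CPM and Mir433 at 11579 CPM on average lie near the top of the range, and none of the 10 genes is 2-fold from the line.

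Other microRNA genes lie between or beside the members. Antisense to Rtl1, Mir136 had 1280 reads (260 CPM) in replicate 1 and 792 reads (178 CPM) in replicate 2, a log2 ratio of 0.54 (0.41 to 0.67), so it was higher in replicate 1 by about as much as Mir127 and Mir434. Mir432, also antisense to Rtl1, had no read in either library, and a count of 0 allows up to 3 reads, worth 0.609 CPM (replicate 1) or 0.675 CPM (replicate 2). Between the 2 groups, Mir3070a had 32 and 33 reads and Mir3070b 49 and 63 reads in replicates 1 and 2, far below the members on either side. Reads that map to several places are not in these counts, and stretches shared with other genes were not searched for Mir3070a and Mir3070b. Beyond Rtl1, Mir341 (1802 CPM in replicate 1 and 980 CPM in replicate 2) and Mir370 (3589 and 1620 CPM) were higher in replicate 1, with log2 ratios of 0.88 (0.83 to 0.93) and 1.15 (1.11 to 1.19). Mir1188, the other detected gene of that stretch, had 41.4 CPM in replicate 1 and 44.8 CPM in replicate 2, a log2 ratio of -0.11 (-0.40 to 0.17) that did not pass.

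Of the locus from Mir770 to Mir410, the 10 members held 55.4% of the reads in replicate 1 and 52.3% in replicate 2. The 38 genes from Mir379 onwards held 39.5% and 44.9%. As a share of all microRNA reads the members took 5.76 ± 0.525% and the genes from Mir379 onwards 4.50 ± 0.177%, and the members were ahead in each library, by 6.13% to 4.37% in replicate 1 and by 5.39% to 4.63% in replicate 2. Reads that mapped to several places are left out of these shares. Stretches shared with other microRNA genes were searched for the members and not for the genes from Mir379 onwards. What this does to the lead was not tested. Without Mir127 the other 9 members took 2.32% in replicate 1 and 2.67% in replicate 2, below the genes from Mir379 onwards. The most abundant genes from Mir379 onwards were Mir411 at 6995 ± 1008 CPM, Mir382 at 6252 ± 828 CPM and Mir379 at 5952 ± 362 CPM, all below the means of Mir127, Mir433 and Mir770 (SD, n = 2). The range of Mir770, from 6230 to 9494 CPM, overlapped those of Mir411 and Mir382. Of the 47 genes of the locus that are not members, 39 were detected and 29 differed between the libraries in the same test, 22 of them higher and 7 lower in replicate 1, with a median log2 ratio of 0.15, beside the 59.2% of all detected genes that differed (34.5% higher and 24.7% lower).

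Outside the locus, the detected genes whose levels in the 2 libraries lay nearest to those of Mir127, by Euclidean distance of log2(CPM + 1), were Mirlet7e (27525 CPM in replicate 1 and 30721 CPM in replicate 2, distance 0.50), Mirlet7d (42692 and 42477 CPM, distance 0.66) and Mir99a (28644 and 15748 CPM, distance 0.89). Of these, Mir99a was higher in replicate 1, as Mir127 was. Those nearest to Mir770 were Mir30d (7414 and 7410 CPM, distance 0.44), Mir143 (7028 and 6711 CPM, distance 0.53) and Mir330 (9071 and 8966 CPM, distance 0.55), none of which was higher in replicate 2 as Mir770 was. With 2 libraries, likeness means a like level and says little about a shared pattern.

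Mir337 depended on the strand of the count. On the sense strand it had 5656 and 4094 reads in replicates 1 and 2, and without regard to strand it had 0 in both. The gene Mir3544 covers the same hairpin on the minus strand, and reads within both genes are ambiguous when strand is ignored. No other member overlapped a microRNA gene on the other strand, and their counts were the same in both columns. Mir337 was also the only member whose precursor shared a stretch of 20 bases, on either strand, with another annotated microRNA gene, namely Mir3544. The rest of the genome was not searched for matches, and reads with several mapping places stayed outside the gene counts. The strain is labelled 5xFAD/CAST while reads were counted against mm10, and what strain differences do to the count of any member was not measured.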

How the data were processed

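Read counts per microRNA gene were deposited by the authors for each library, against the mm10 assembly and GENCODE M21, per the labels and the notes beside the tables. For the aligner, the counter and their settings, nothing is given in the sources used here. Each table has 3 count columns, taken from their layout as without strand, sense and antisense, and the sense column was used. Unmapped reads made up 25.6% in replicate 1 and 34.3% in replicate 2, reads mapping to several places 38.5% and 33.0%, and reads outside microRNA genes 5.82% and 6.54%. These stayed out of library sizes. CPM was scaled to 1000000 sense gene reads. The counts of the libraries differed beyond sampling noise (a chi-square of 346 per degree of freedom).

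Symbols and coordinates came from GENCODE M21 (2202 of 2202 identifiers matched), and mature sequences from RefSeq GRCm38.p6 (10 of 10 genes matched, with the same precursor coordinates). A member was placed antisense to Rtl1 when it overlapped Rtl1 on the other strand, and otherwise with Meg3. Detected means at least 10 reads in each library. The libraries were compared by the exact binomial test (scipy 1.17.1). The spread between libraries came from an intercept-only fit in edgeR 4.0.16 (R 4.3.3), which gave a coefficient of variation of 0.340 over 417 genes, and scaling alternatives used TMM factors and DESeq2 1.42.0 size factors. The exact binomial test and the fit of the spread were tried on simulated counts, and the other steps were not. For the binomial test the simulated counts held counting error only, which is less than the spread between these libraries. Named genes are the members, the other genes of the locus between or beside them, the 3 highest genes from Mir379 onwards, and the 3 genes nearest in level to Mir127 and to Mir770. The members and lists were chosen with earlier results of these data known.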

Additional observations from a re-analysis of the deposited data

Results flagged for a closer look

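Reads on the strand opposite to a member were above 3, the limit that a count of 0 allows, at Mir337 alone among the 10 genes. There were 17 such reads in replicate 1 and 6 in replicate 2. Mir3544 is annotated on that strand, where such reads would count as its sense reads. Their source was not tested.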

How the results depend on the processing

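The antisense group stood above the Meg3 group under all 11 alternatives tried, but several of these could not have reversed it. Ignoring strand, or keeping only some of the Meg3 members, takes members from the Meg3 sum alone. Counting every gene antisense to Rtl1 adds reads to the antisense sum alone. Leaving out a library returns the ratio of the other library, given above. The log2 ratio of sums, 2.18, became 3.43 as a ratio of medians, and the difference of medians was 2.98 on the log2(CPM + 1) scale and 2.96 on the log2(CPM + 10) scale. Under the other settings it lay between 1.77 and 2.61, the first from leaving out replicate 1, against 2.60 from leaving out replicate 2. The value of 2.51 without the Meg3 members nearer to Rtl1 was an alternative chosen after seeing the data. The median level of the 10 members, 977 CPM, ranged from 906 to 1048 CPM when either library was left out, and their share of reads from 5.39% to 6.13%. Of the levels of single members under other scalings or without regard to strand, 25 of 30 moved by less than the SD between the libraries. The other 5 were all without regard to strand, where Mir337 was at 0 CPM. The reads of Mir431, Mir433, Mir493 and Mir540 were the same in both columns. Their CPM moved with the library total, which was smaller without regard to strand. It was 4580103 against 4929428 reads in replicate 1 and 4122606 against 4441328 reads in replicate 2. The number of members that differed between the libraries was 8 under other scalings and other filters, and 7 without regard to strand, where Mir337 could not be tested. Over all genes it was 247, with 218 to 275 under the alternatives. The fitted coefficient of variation stayed between 0.340 and 0.349. No paired analysis was possible because there is 1 group. Leaving out a library leaves no comparison between libraries. Depth limits Mir493 most, with 152 reads in replicate 2.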

Other observations

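The median GC content of the precursors was 56.8% over the members antisense to Rtl1 and 57.2% over those in or near Meg3, with ranges of 45.7 to 60.4% and 52.6 to 70.2%. Mir770, the most abundant gene of the Meg3 group, had the highest GC content, and Mir434 the lowest. The longest word that occurred more than once in a precursor was in Mir434, 13 bases found 2 times, tggtttgaaccat on mm10 chromosome 12. Mir540 and Mir431 each held a repeated word of 10 bases, and no word of 6 or more bases was repeated in Mir127 or Mir337. These features are given as descriptions and were not compared with the counts by a test.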
